A study of Rattus norvegicus with 15 samples.

Results

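Genes of the nuclear receptor superfamily, without the receptors for corticosteroids, were followed in rat liver, gene by gene, through CCl4-induced cirrhosis and eplerenone treatment. The members are a list of 41 genes that is not the whole remaining family, taken by their symbol in the deposited table of read counts, which lists 32623 genes. Each symbol was found in 1 row. The liver held enough reads for a test of 34 of them.

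The study compared livers of male Wistar rats with an initial weight of 75 to 100 g in 3 groups. Control rats were not treated. Rats of the cirrhosis group inhaled CCl4, a hepatotoxin, for 12 weeks with phenobarbital (0.35 g/L) in their drinking water. Rats of the cirrhosis & eplerenone group had the same 12 weeks of CCl4 and phenobarbital and were also fed eplerenone, an antagonist of the mineralocorticoid receptor, at 100 mg per kg body weight each day from week 8 on. Livers of the CCl4 groups were collected 7 to 10 days after the last CCl4. Phenobarbital went with CCl4 in both diseased groups, and the effects of these agents cannot be told apart. The rats chosen for sequencing were, per the study's text, those in which cirrhosis induction or eplerenone treatment had succeeded by phenotype, which limits them as a sample of all treated rats. Values were available for control replicates 2 to 5 (n = 4), 5 cirrhosis rats and 5 cirrhosis & eplerenone rats. Control replicate 1 was not analysed here. Per the study's text, 1 control sample set apart by principal component analysis was left out, without its replicate number. The control ranges below come after that exclusion.

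Nuclear receptors are transcription factors that bind DNA through a zinc finger domain, and most of them switch genes on or off when a small lipophilic ligand occupies their ligand binding domain. Many act as heterodimers with a retinoid X receptor (RXR), while others, among them the HNF4, NR4A and REV-ERB proteins, bind as monomers or homodimers and are set largely by their own abundance. In liver this family senses bile acids, oxysterols, drugs, retinoids, thyroid hormone and fatty acids, maintains hepatocyte identity, and couples metabolism to the circadian clock.

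Between 16157491 and 21574767 reads were counted on genes per library. Levels are given in FPM, the CPM of edgeR over TMM-normalized library sizes, and the smallest amount taken as detectable, 3 counts, stood for 0.121 to 0.191 FPM. The files give no transcript lengths, so levels were compared between rats for the same gene and not between genes. A gene was called differentially expressed when its FDR, adjusted over the 14417 genes tested, was below 0.05 in both edgeR's quasi-likelihood test and DESeq2, and every log2FC, standard error (SE) and FDR below is that of edgeR unless DESeq2 is named. The samples are different rats, and p-values measure the spread between them. Summed hepatocyte markers (11 genes, Alb and Apoa1 among them, none at 0) ranged over 167000-182000 FPM in control rats, 99600-164000 FPM with cirrhosis and 89600-155000 FPM with added eplerenone, so the tissue label held in every library. Cholangiocyte markers summed to 16.7-25.9 FPM, 60.2-165 FPM and 52.8-121 FPM in the same order, with 9 of 9 tested markers higher in cirrhosis than in control. Stellate cell and myofibroblast markers summed to 167-270, 291-581 and 426-588 FPM, and 7 of 11 were higher in cirrhosis. Macrophage markers summed to 244-427, 211-469 and 223-533 FPM and lymphocyte markers to 12.1-19.7, 17.7-31.0 and 14.1-34.4 FPM. In whole tissue, fewer cells of a type and less RNA per cell cannot be told apart, and this holds for every receptor below.

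Of the 41 receptors, 34 passed the filter on low counts and 32 had a read in every one of the 14 libraries. A median of at least 1 FPM in some group was reached by all 34, at least 10 FPM by 24 and at least 100 FPM by 4. The 7 others were at or near the floor. Rorb, Esr2 and Nr0b1 had no count in any library, which allows at most the floor of 3 counts in each. Esrrb, the progesterone receptor Pgr and Nr5a1, the steroidogenic factor of adrenal and gonad, had 6, 9 and 1 counts in all and never more than 3 in a library. Nr4a3, an immediate early gene, had 63 counts in all and fell short of the filter. The classes that sense bile acids, sterols and drugs had group medians of 27.7 to 261 FPM, and the HNF4 and COUP group ranged from 0.205 FPM (Hnf4g in cirrhosis) to 530 FPM (Hnf4a in control). The retinoid receptors lay between 9.24 and 74.7 FPM in all groups. Medians reached 69.0 FPM among the clock-linked receptors (Nr1d1 under eplerenone) and 36.9 FPM among the thyroid hormone receptors (Thrb under eplerenone), while Vdr, Nr6a1, Rora, Nr2f1, Pparg and the NR4A receptors stayed at a few FPM or less.

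**Figure D1:**
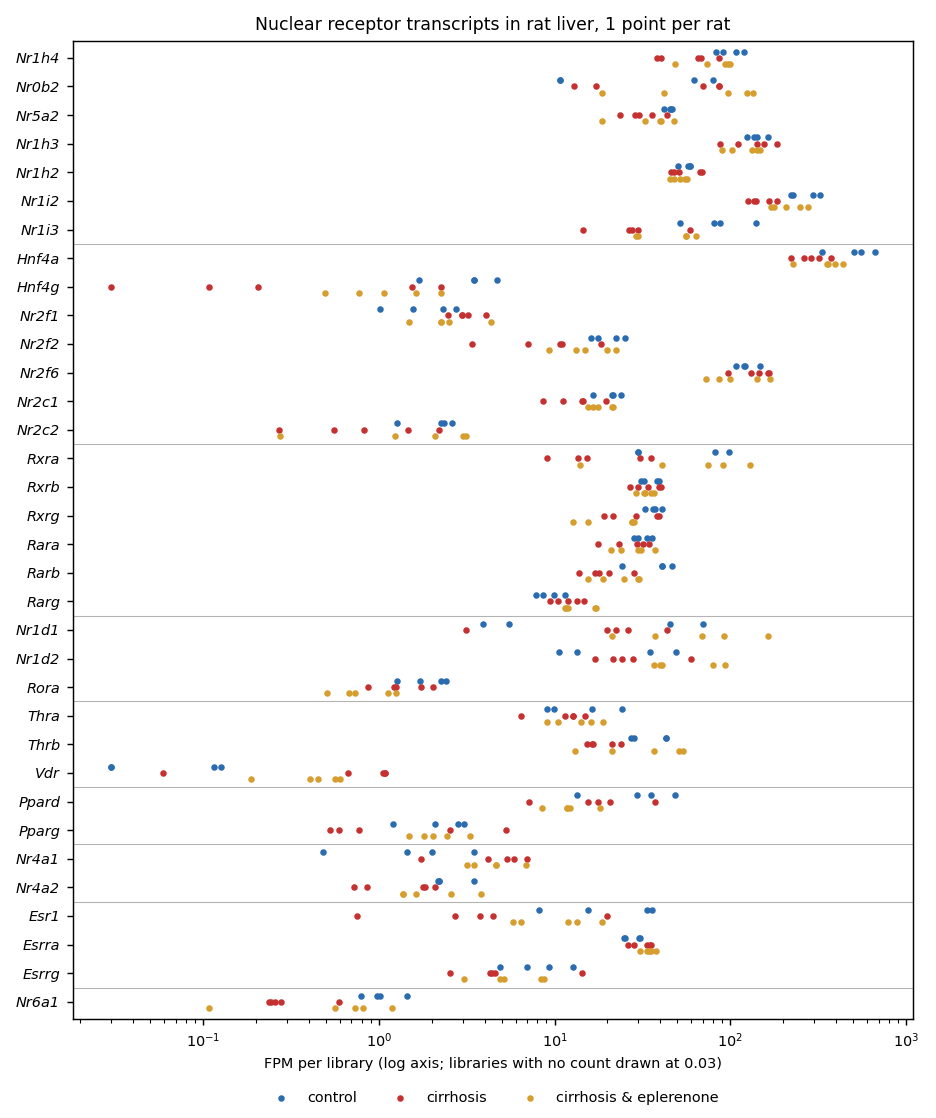
Level of each of the 34 tested receptors in every rat, as FPM on a log axis, with control in blue, cirrhosis in red and cirrhosis & eplerenone in yellow, and grey lines between classes of receptors. Red points of Nr1i2, Thrb, Nr4a2 and Nr6a1 lie wholly below the blue ones, and Nr1d1 and Nr0b2 spread widely within the control group itself.

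In cirrhosis, 5 receptors were lower than in control livers and 1 was higher. Nr1i2 (PXR) and Nr1i3 (CAR), which sense drugs, the hepatocyte factor Hnf4a, the retinoic acid receptor Rarb and the orphan receptor Nr6a1 fell, and Vdr rose from near the floor. Vdr passed the filter on low counts only through CCl4-treated rats, where it was high. These 6 of 34 are 17.6% of the members, against 20.1% of all genes tested that were called in either direction, so the share called was near the background. The split was 5 lower and 1 higher, or 14.7% and 2.94% of the members, where 6.67% of all genes were called lower and 13.4% higher. The median log2FC of the members was -0.46 and that of all genes -0.01, with 26 members below 0 and 8 above it. Scaled to total counts instead of TMM, where the median of all genes moved to 0.28, the split was 21 below and 13 above.

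Without overlap between control and cirrhosis rats were 4 members, 11.8%, against 20.2% of all genes. An unadjusted p under 0.05 was found for 14 members (41.2%; 37.1% of all genes). DESeq2 alone called 13 (38.2%; 27.8% of all genes), adding Nr1h4, Nr2f2, Nr2c1, Rxra, Thrb and Esr1 as lower and Nr4a1 as higher. Cirrhosis replicate 5 carried the highest level of its group for 14 of the 34 members and the lowest for 8. It also had the most hepatocyte marker reads of the cirrhosis rats (164000 FPM, others 99600 to 122000) and the fewest cholangiocyte marker reads (60.2 FPM, others 123 to 165). Without it, 15 members were called, 13 lower and 2 higher, and without control replicate 5 only 4 were called. The part of cell composition in these counts was not tested.

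**Figure D2:**
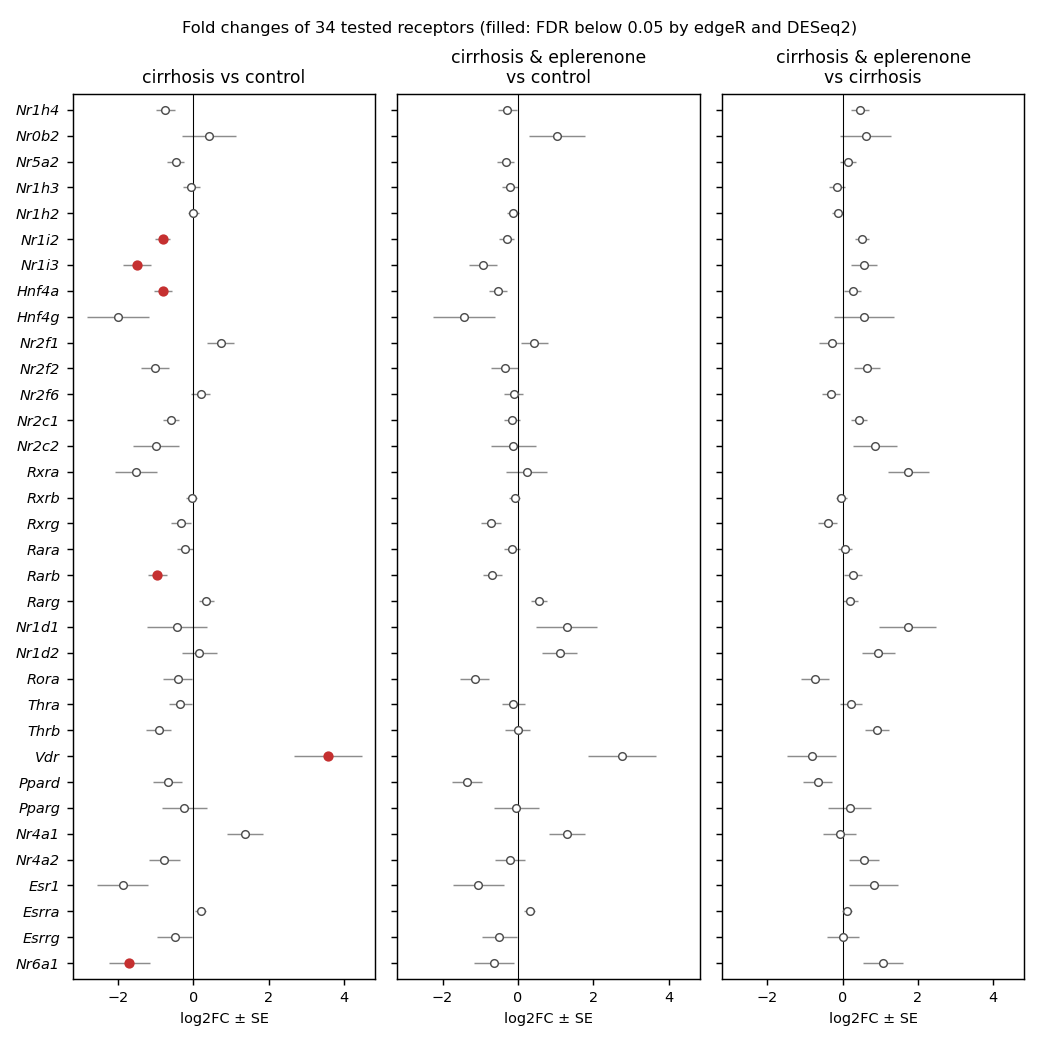
The log2FC of each tested receptor with its SE in the 3 comparisons, filled where the receptor was called in both tools. All filled points belong to cirrhosis vs control, 5 to the left of 0 and Vdr to the right.

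The libraries also differed with gene span, the distance from the start to the end of a gene in the RefSeq annotation (GRCr8), which was available for 12619 of the genes tested and for all 34 receptors. Genes were put in quintiles by span, and in cirrhosis replicates 1 and 3 the median of the longest quintile lay 0.87 and 0.97 log2 units below that of the shortest, relative to control. The other 12 libraries lay between -0.44 (cirrhosis & eplerenone replicate 5) and 0.29 (replicate 2 of that group). Of the 34 receptors, 11 were in the longest quintile, 19 in the longest 2 quintiles and 6 in the shortest. Each quintile holds 2523 or 2524 of the 12619 genes. Across all genes the median log2FC of cirrhosis vs control went from 0.21 in the shortest quintile to -0.25 in the longest, and that of cirrhosis & eplerenone vs cirrhosis from -0.22 to 0.23. Without cirrhosis replicates 1 and 3 only Nr1i2 was still called (log2FC -0.82, FDR 0.0367). With the span difference of each library as a term in the models, Nr1i2 (-0.82) and Nr1i3 (-1.58) were still called. Both alternatives were chosen after seeing the data, and the first left fewer cirrhosis rats, which by itself can cost calls. Over all settings other than leave-one-out, these 2 and DESeq2 included, the log2FC was -1.84 to -1.25 for Nr1i3 and -0.89 to -0.53 for Hnf4a. It was -0.97 to -0.66 for Rarb, -2.05 to -1.43 for Nr6a1 and 3.33 to 3.88 for Vdr. The part of span in the results was not tested beyond these fits.

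**Figure D3:**
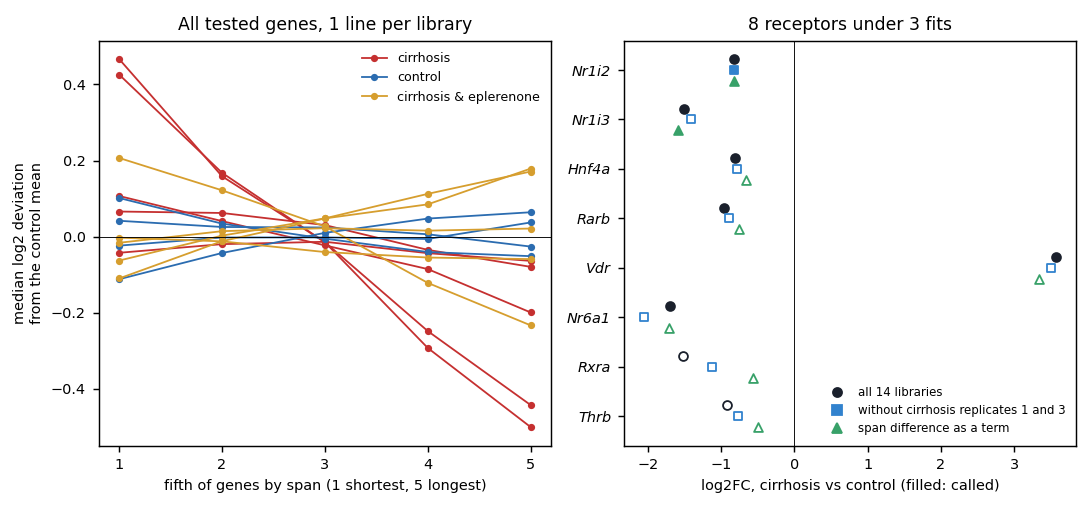
Left, median log2 deviation from the control mean of all tested genes in each quintile of gene span (1 shortest, 5 longest), 1 line per library, where cirrhosis replicates 1 and 3 run from over 0.4 down to under -0.4. Right, log2FC of 8 receptors in cirrhosis vs control with all 14 libraries, without those 2 libraries and with the span difference as a term, filled where called, with Nr1i2 filled in all 3 and Rxra and Thrb nearest to 0 with the term.

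Nr1i2 (ENSRNOG00000002906) encodes PXR, the receptor that answers to a broad range of drugs and bile acids by inducing cytochromes P450 and transporters. It was measured at 323, 227, 294 and 220 FPM in control replicates 2 to 5, at 126, 137, 183, 140 and 166 FPM in cirrhosis replicates 1 to 5, and at 277, 249, 170, 177 and 207 FPM in cirrhosis & eplerenone replicates 1 to 5. Every cirrhosis rat was below every control rat, and the cirrhosis & eplerenone rats overlapped both groups. The log2FC was -0.82 ± 0.20 in cirrhosis vs control (edgeR FDR 0.0113), and this call held in all 14 fits that left out 1 library. Scaling to total counts gave -0.54 and an FDR of 0.0539. Cirrhosis & eplerenone differed from cirrhosis by 0.52 ± 0.19 (edgeR FDR 0.312) and from control by -0.30 ± 0.20 (edgeR FDR 0.434).

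Nr1i3 encodes CAR, the mediator of phenobarbital induction in liver, which is held in the cytoplasm until it is activated. Control rats had 139, 86.8, 80.5 and 51.8 FPM, cirrhosis rats 29.8, 14.5, 27.7, 26.6 and 58.9 FPM, and cirrhosis & eplerenone rats 29.0, 56.3, 29.9, 63.7 and 56.1 FPM. Of the cirrhosis rats, replicate 5 alone reached the range of control. The log2FC was -1.51 ± 0.37 (edgeR FDR 0.0124), a call that held in all 14 leave-one-out fits. Against control, cirrhosis & eplerenone gave -0.93 ± 0.37 (edgeR FDR 0.157). By RefSeq, Nr1i2 overlaps Gsk3b and Nr1i3 overlaps Tomm40l, and as the strand setting of the counting is not stated, shared reads cannot be assigned. Gsk3b was at 3.11 to 6.45 FPM and Tomm40l at 2.10 to 11.0 FPM in the 14 libraries, fewer reads than the receptors had. Tomm40l had 142 reads against 2300 of Nr1i3 in control replicate 2, and 96 against 356 in cirrhosis replicate 2. Tomm40l was itself lower in cirrhosis (log2FC -1.16, edgeR FDR 0.0434).

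The bile acid receptor FXR (Nr1h4) had 82.6-120 FPM in control rats, 38.3-86.4 FPM with cirrhosis and 48.5-100 FPM with added eplerenone. Its log2FC in cirrhosis of -0.75 ± 0.26 did not pass in edgeR (FDR 0.0518) and passed in DESeq2 (FDR 0.0306). Nr0b2 (SHP), which lacks a DNA binding domain and represses bile acid synthesis when FXR induces it, was the most variable of this class. It stood at 10.7, 61.9, 79.3 and 10.7 FPM in control, at 86.5, 17.2, 85.7, 69.6 and 12.9 FPM in cirrhosis, and at 42.0, 134, 18.5, 96.9 and 125 FPM in cirrhosis & eplerenone. Each group held low and high rats, and the groups overlapped throughout (log2FC 0.42 ± 0.72 in cirrhosis vs control, edgeR FDR 0.687). Nr5a2 (LRH-1), which activates Nr0b2 and bile acid synthesis genes, had a narrow control range of 41.8 to 46.4 FPM against 23.7 to 43.4 FPM in cirrhosis (log2FC -0.47 ± 0.23, edgeR FDR 0.148). The oxysterol receptors LXRα (Nr1h3) and LXRβ (Nr1h2) had log2FC of -0.06 ± 0.22 and 0.00 ± 0.15 in cirrhosis and overlapped in all groups.

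Promoter sequences were looked up in RefSeq (GRCr8) from 250 bases before to 50 bases after the start, and 36 of the 41 members had one. For Ppard, Hnf4g, Nr1h4, Nr4a3 and Nr2f2 none was used. The letters TCAAGG, which LRH-1 can bind, were found on either strand in 14.8% of all 33469 promoter windows and in 4 members, Nr0b2, Thrb, Esr1 and Esrrg. The E-box CACGTG, which CLOCK and ARNTL bind, was found in 6.42% of windows and in Nr0b2, Nr1d1, Esr2 and Nr5a1. They are shown for Nr0b2 (plus strand, chr5:151063079-151063108 and chr5:151062955-151062984) and for Nr1d1 (minus strand, chr10:84229628-84229657), since both receptors varied widely between untreated rats, with the motif in capitals. A match is a description of the letters and not of binding.
Nr0b2, TCAAGG: tgacttctggagTCAAGGttgtttggccag
Nr0b2, E-box: cgatagcaaggcCACGTGgagcttccagtg
Nr1d1, E-box: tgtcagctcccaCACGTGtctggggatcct

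Hnf4a, a regulator of hepatocyte identity that drives lipoprotein, clotting factor and urea cycle genes, fell in cirrhosis. Control rats had 331, 661, 505 and 554 FPM and cirrhosis rats 320, 286, 262, 220 and 374 FPM. Control replicate 2, the lowest control, lay below cirrhosis replicate 5 and close to replicate 1, and the other 3 controls lay above every cirrhosis rat. The log2FC was -0.81 ± 0.24 (edgeR FDR 0.029). The call was lost without cirrhosis replicate 3 or 4 or control replicate 3, 4 or 5, with values of -0.97 to -0.67 over the 14 leave-one-out fits. Cirrhosis & eplerenone rats had 440, 392, 226, 354 and 357 FPM, a log2FC of 0.27 ± 0.23 against cirrhosis (edgeR FDR 0.54) and of -0.54 ± 0.24 against control (edgeR FDR 0.214). The median log2FC of the 11 hepatocyte markers in cirrhosis was -0.52.

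Hnf4g, the paralog better known from gut and kidney, was low, with 1.69 to 4.70 FPM in control and 0 to 2.26 FPM in cirrhosis (log2FC -2.01 ± 0.83, edgeR FDR 0.0938). Nr2f2 (COUP-TFII), a receptor of endothelial and mesenchymal cells that hepatocytes also express, had 20.4 ± 4.20 FPM in control (SD, n = 4) and 3.40 to 18.3 FPM in cirrhosis (log2FC -1.02 ± 0.36, edgeR FDR 0.0596, DESeq2 FDR 0.0361). Its relative Nr2f1 had a log2FC of opposite sign, 0.72 ± 0.36 (edgeR FDR 0.158), at 1.02 to 4.37 FPM. The testicular receptors Nr2c1 (log2FC -0.60 ± 0.21, edgeR FDR 0.0592) and Nr2c2 (-0.99 ± 0.62, edgeR FDR 0.246) and the repressor Nr2f6 (0.19 ± 0.24, edgeR FDR 0.585) did not pass. Cells other than hepatocytes changed in these livers too, as 3 of 9 endothelial markers were called lower in cirrhosis and 2 higher, and the part of this in the values of Nr2f2 was not tested.

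Among the retinoid receptors, which bind all-trans or 9-cis retinoic acid, Rarb was the member that fell. It had 24.2, 40.8, 40.8 and 46.7 FPM in control, 17.0, 28.4, 20.3, 17.9 and 13.7 FPM in cirrhosis and 18.8, 24.8, 29.7, 30.1 and 15.4 FPM in cirrhosis & eplerenone. Cirrhosis replicate 2 and control replicate 2 were the only rats of these 2 groups to overlap. The log2FC was -0.97 ± 0.25 (edgeR FDR 0.0169), and leaving out 1 library ended the call for control replicate 5 alone. Against control, cirrhosis & eplerenone gave -0.68 ± 0.25 (edgeR FDR 0.132).

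Rarb is known as a gene that retinoic acid itself induces, as is Cyp26a1, the enzyme that clears retinoic acid, which was among the retinoic acid targets listed with these receptors. Cyp26a1 moved the other way. It had 0.181, 0.289, 2.56 and 2.61 FPM in control, 26.5, 30.7, 27.5, 14.5 and 8.09 FPM in cirrhosis and 11.3, 26.3, 19.3, 9.93 and 22.1 FPM in cirrhosis & eplerenone, with every CCl4-treated rat above every control rat. The log2FC was 3.93 ± 0.66 (edgeR FDR 0.00182) in cirrhosis and 3.66 ± 0.65 (edgeR FDR 0.00709) in cirrhosis & eplerenone. The promoter windows of both genes hold a direct repeat with a spacer of 5 bases, the layout bound by RAR and RXR, searched on both strands as GTTCA, any 5 bases and AGTTCA. It was found in 9 of the 33469 windows (0.0269%), and Rarb was the only member. Cyp26a1 was the only call among 7 tested retinoic acid targets, whose median log2FC was 0.27. Both stretches are shown on the plus strand, Rarb at chr15:11336410-11336439, just after the start, and Cyp26a1 at chr1:244883723-244883752, just before it, with the repeat in capitals. In Cyp26a1 the match is on the opposite strand.
Rarb, direct repeat: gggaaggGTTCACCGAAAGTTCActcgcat
Cyp26a1, direct repeat: ttaaagaTGAACTTTGGGTGAACtaatttg

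Of the 9 genes with this repeat, Zfp791 and Marco were also in the count table. They were looked at after the search, and Zfp791, a zinc finger gene, was lower in cirrhosis (log2FC -3.30 ± 0.89, edgeR FDR 0.0198) at no more than 1.04 FPM, while Marco, a macrophage scavenger receptor, was not called (log2FC -0.64 ± 0.73, edgeR FDR 0.532).

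Rxra, the main RXR partner in hepatocytes, had 30, 81.8, 29.7 and 97.7 FPM in control, 13.6, 30.8, 9.01, 15.2 and 35.4 FPM in cirrhosis and 90.3, 130, 14, 74.7 and 41.0 FPM in cirrhosis & eplerenone. Controls split into a pair near 30 FPM and a pair above 80 FPM, and only the higher pair stood clear of all cirrhosis rats. The log2FC in cirrhosis was -1.52 ± 0.56 (edgeR FDR 0.0634, DESeq2 FDR 0.0236) and became -0.56 with the span difference as a term. Rxra also had the smallest unadjusted p of all members between cirrhosis & eplerenone and cirrhosis, as described below. Rxrb and Rxrg had log2FC of -0.05 ± 0.15 and -0.32 ± 0.26 in cirrhosis. Rxrg was at 32.5 to 41.0 FPM in control and at 12.8 to 28.3 FPM in cirrhosis & eplerenone, ranges that did not overlap (log2FC -0.72 ± 0.26, edgeR FDR 0.13). The log2FC of Rara and Rarg in cirrhosis were -0.22 ± 0.21 and 0.35 ± 0.20 and did not pass.

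The REV-ERB genes Nr1d1 and Nr1d2 encode the repressors that close the second loop of the circadian clock, and their mRNA swings over the day. Nr1d1 had 70.3, 3.93, 45.4 and 5.53 FPM in control, 22.4, 19.8, 26.1, 43.9 and 3.15 FPM in cirrhosis and 69.0, 163, 21.3, 37.1 and 92.1 FPM in cirrhosis & eplerenone. Nr1d2 had 49.3, 10.6, 34.8 and 13.5 FPM, then 24.1, 28.0, 21.5, 59.5 and 16.9 FPM, then 93.5, 80.1, 36.6, 39.8 and 40.9 FPM in the same order. Control replicates 2 and 4 were high and replicates 3 and 5 low for both genes, and each group held rats that lay far apart for Nr1d1. The log2FC were -0.44 ± 0.79 and 0.15 ± 0.47 in cirrhosis vs control (edgeR FDR 0.702 and 0.833).

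Clock genes measured in the same libraries differed between rats as well. Dbp, a clock output gene with a strong daily rhythm, was at 182 FPM in cirrhosis replicate 4 and at 187 and 257 FPM in cirrhosis & eplerenone replicates 1 and 2, and at 2.35 to 33.7 FPM in the other 11 rats. Arntl, the activator that runs in opposite phase, was at 1.95, 0.971 and 4.57 FPM in those 3 rats and at 10.2 to 37.5 FPM in the others. The time of day at which livers were taken is not given in the sources used here, and its part in the values of Nr1d1 and Nr1d2 was not tested. Rora is the activator that competes with REV-ERB for the same sites. It was at 1.27 to 2.42 FPM in control and at 0.511 to 1.26 FPM in cirrhosis & eplerenone, without overlap. The nearest rats, control replicate 2 and cirrhosis & eplerenone replicate 5, had 21 and 23 reads, so that this gap rests on the scaling. The log2FC of Rora between these groups was -1.15 ± 0.38 (edgeR FDR 0.0944, DESeq2 FDR 0.0417). Of 15 clock genes, Clock was the only one called in cirrhosis (log2FC -0.86, edgeR FDR 0.0213), and their median log2FC was -0.45. In cirrhosis & eplerenone vs control none of the 15 was called in both tools, 10 had an unadjusted p under 0.05, DESeq2 alone called 2 as higher, and the median was 0.41.

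**Figure D4:**
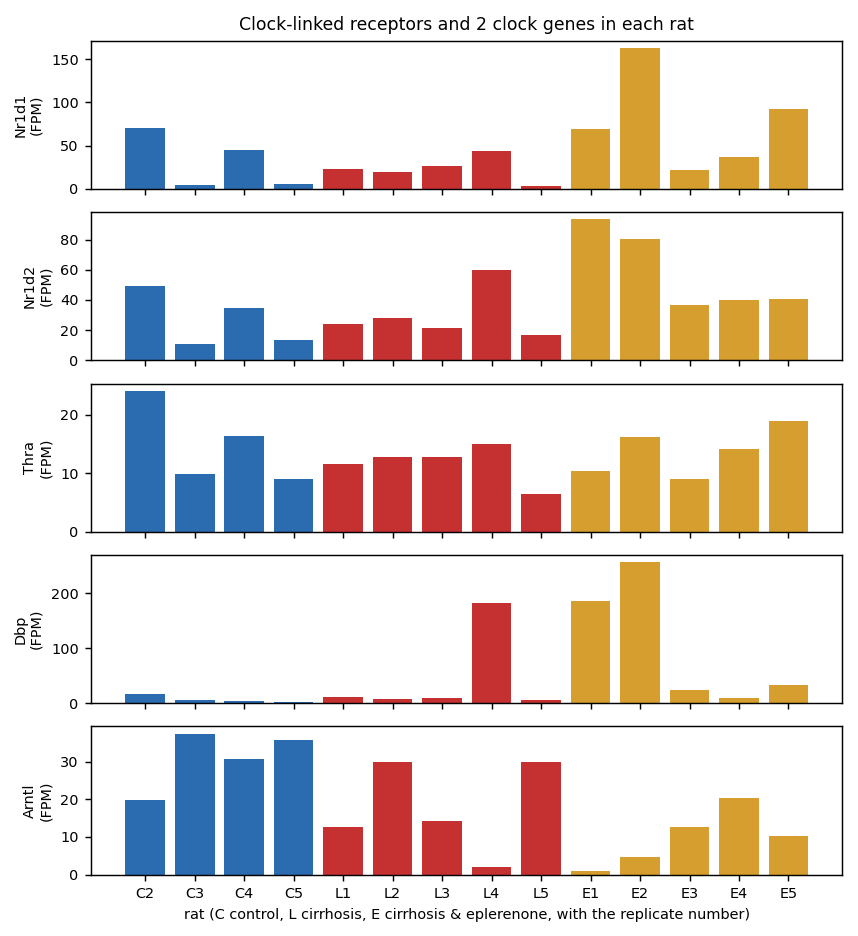
FPM of Nr1d1, Nr1d2, Thra, Dbp and Arntl in each of the 14 rats, with bars that start at 0, coloured blue for control, red for cirrhosis and yellow for cirrhosis & eplerenone. Dbp is tall and Arntl low in L4, E1 and E2, and control rats differ in Nr1d1 from 3.93 to 70.3 FPM.

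Of the thyroid hormone receptors, Thra overlaps Nr1d1 on the opposite strand, and without a stated strand setting their shared reads cannot be assigned. Its controls at 24.1, 9.89, 16.4 and 9.03 FPM had high rats in the same positions as Nr1d1, and its log2FC in cirrhosis was -0.35 ± 0.31 (edgeR FDR 0.427). Thrb, the main hepatic receptor for T3, had 43.2, 27.2, 28.4 and 42.9 FPM in control, 15.3, 21.3, 16.3, 16.6 and 23.8 FPM in cirrhosis and 53.9, 50.8, 13, 36.9 and 21.3 FPM in cirrhosis & eplerenone. No cirrhosis rat reached the lowest control, and cirrhosis & eplerenone held the 2 highest rats of the series together with the lowest. The log2FC was -0.93 ± 0.33 in cirrhosis vs control (edgeR FDR 0.0605, DESeq2 FDR 0.0385) and -0.49 with the span difference as a term.

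Vdr, the vitamin D receptor, which in liver is known from non-parenchymal cells and bile duct epithelium, was the member that rose in cirrhosis. Control libraries had 0, 0.116, 0 and 0.127 FPM, from 4 reads in all, cirrhosis rats 0.666, 1.06, 1.08, 1.08 and 0.0595 FPM, from 80 reads, and cirrhosis & eplerenone rats 0.409, 0.188, 0.567, 0.452 and 0.601 FPM, from 44 reads. Cirrhosis replicates 1 to 4 were above every control, and replicate 5, with the fewest cholangiocyte marker reads of its group, was within the control range. The level over all reads was 13.6 times that of control in cirrhosis (95% exact interval 5.09 to 50.9) and 7.54 times in cirrhosis & eplerenone (2.74 to 28.9), intervals that cover counting error only. The edgeR FDR was 0.0138 in cirrhosis vs control and 0.0905 in cirrhosis & eplerenone vs control, where DESeq2 gave 0.0424. The fitted log2FC of 3.57 ± 0.89 rests on control libraries with at most 2 reads. Vdr passed the filter on low counts through CCl4-treated rats alone, mainly cirrhosis replicates 1 to 4 (12, 26, 20 and 21 reads). Its call is therefore not independent of the filter. The part of bile duct and stellate cells in the rise of Vdr was not tested.

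Ppard, a fatty acid receptor present in most cells, had 13.5, 48.6, 29.6 and 35.4 FPM in control, 15.6, 20.7, 17.6, 7.18 and 37.4 FPM in cirrhosis and 11.8, 8.51, 12.2, 18.2 and 11.7 FPM in cirrhosis & eplerenone. Control replicate 2 was the lowest control and the only one within the range of cirrhosis & eplerenone. The log2FC was -0.69 ± 0.40 in cirrhosis (edgeR FDR 0.212) and -1.35 ± 0.40 in cirrhosis & eplerenone vs control (edgeR FDR 0.0626, DESeq2 FDR 0.0151). Pparg, the receptor of fat cells that quiescent stellate cells also hold, was at 0.530 to 5.30 FPM in all groups with a log2FC of -0.24 ± 0.60 in cirrhosis.

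The NR4A receptors are immediate early genes with no known hormone. Nr4a1 had 0.483, 1.45, 2.01 and 3.50 FPM in control and 5.38, 4.20, 6.96, 5.85 and 1.73 FPM in cirrhosis, with replicate 5 alone inside the control range (log2FC 1.37 ± 0.48, edgeR FDR 0.0553, DESeq2 FDR 0.0167). Nr4a2 went the other way, with 2.17 to 3.50 FPM in control and 0.721 to 2.08 FPM in cirrhosis, no overlap, and a log2FC of -0.78 ± 0.41 that did not pass (edgeR FDR 0.177). Nr4a3 had 1 read in the 4 control libraries, 21 in cirrhosis and 41 in cirrhosis & eplerenone, and over all reads its level in cirrhosis & eplerenone was 28.1 times that of control (95% exact interval 4.77 to 1137, counting error only). This ratio rests on 1 control read and mostly on 2 rats, as cirrhosis & eplerenone replicates 1 to 5 had 14, 2, 18, 4 and 3 reads. In the 4 leave-one-out fits in which Nr4a3 was tested, it was not called. Of 11 immediate early genes tested beside them, 3 were higher in cirrhosis, Egr2, Atf3 and Btg2 (log2FC 2.12, 1.82 and 1.21), and the median log2FC of the list was 1.02. Of all genes, 13.4% were called higher.

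Esr1, the estrogen receptor of liver, had 8.14, 15.6, 33.4 and 35.9 FPM in control, 2.72, 4.45, 0.755, 3.79 and 19.9 FPM in cirrhosis and 13.4, 18.5, 6.48, 11.9 and 5.79 FPM in cirrhosis & eplerenone. Cirrhosis replicate 5 was the only cirrhosis rat to reach the controls, and without it the log2FC went from -1.88 ± 0.68 (edgeR FDR 0.0611, DESeq2 FDR 0.0195) to -2.98 and was called. With the span difference as a term it was not called. Esrra, which drives mitochondrial genes, was at 25.0 to 30.5 FPM in control and 30.8 to 37.7 FPM in cirrhosis & eplerenone, without overlap (log2FC 0.31 ± 0.14, edgeR FDR 0.221). Esrrg gave a log2FC of -0.50 ± 0.46 in cirrhosis. Nr6a1, the germ cell nuclear factor, fell. It had 1.45, 0.983, 0.794 and 1.02 FPM in control, 0.277, 0.245, 0.593, 0.256 and 0.238 FPM in cirrhosis and 0.562, 1.19, 0.810, 0.734 and 0.109 FPM in cirrhosis & eplerenone, so that every cirrhosis rat was below every control (log2FC -1.70 ± 0.55, edgeR FDR 0.0417). At this low level the call held in 5 of 14 leave-one-out fits.

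**Figure D5:**
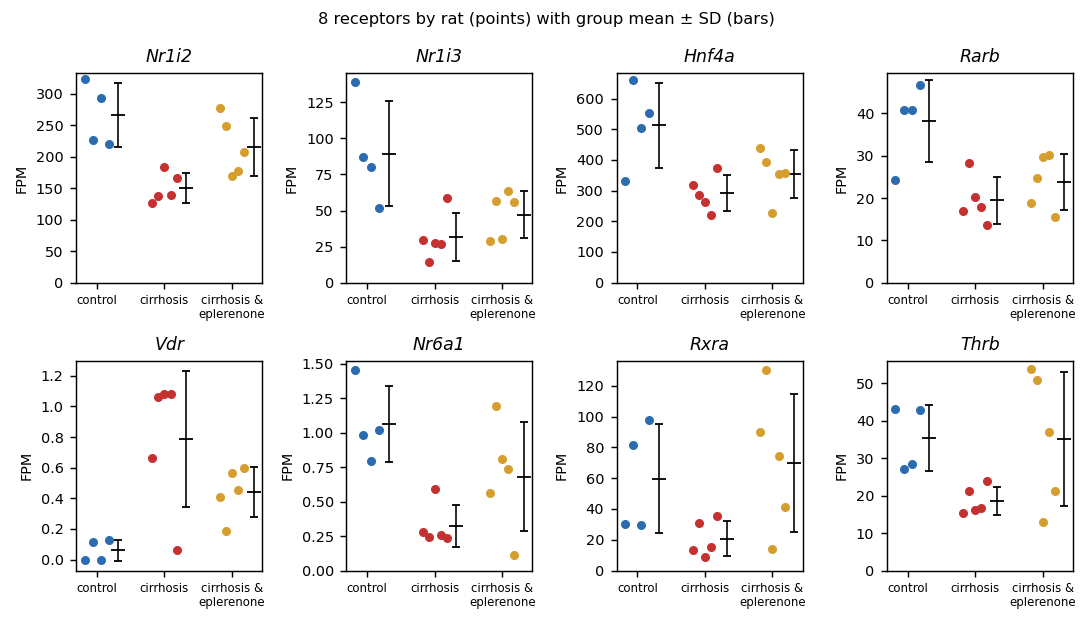
FPM of 8 receptors in each rat (points, in replicate order) with the mean and SD of the group (black bars, n = 4, 5 and 5). Cirrhosis points of Nr1i2, Nr6a1 and Thrb lie below all control points. The cirrhosis & eplerenone points reach above the highest control for Rxra and Thrb, from within the range of cirrhosis for Rxra and from below it for Thrb.

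Between cirrhosis & eplerenone and control, no receptor was called in both tools, where 5.2% of all genes were, 4.33% higher and 0.874% lower. An unadjusted p under 0.05 was found for 11 of 34 members (32.4%; 20.5% of all genes), and DESeq2 alone called Vdr as higher and Rora and Ppard as lower (8.82%; 10.6% of all genes). The median log2FC of the members was -0.16 and that of all genes 0.01. With total counts, which moved the median of all genes to 0.32, 21 members lay above 0 in place of 9. Groups without overlap were found for Rxrg, Rora, Vdr and Esrra (11.8%; 10.9% of all genes). Without cirrhosis replicate 5, whose removal changes the shared estimate of spread, Vdr and Ppard were called.

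Between cirrhosis & eplerenone and cirrhosis, groups that differ by eplerenone and also in the share of each animal label prefix, no receptor was called by either tool. Of all genes, 0.0139% were called in both tools and 0.513% by DESeq2 alone. At an unadjusted p under 0.05 there were 6 members (17.6%; 14.4% of all genes), all with a higher mean under eplerenone. They were Rxra (log2FC 1.75 ± 0.54), Thrb (0.91 ± 0.32), Nr1i2 (0.52 ± 0.19), Nr1d1 (1.73 ± 0.77), Nr1d2 (0.95 ± 0.44) and Nr2c1 (0.43 ± 0.20), with edgeR FDR of 0.312 to 0.346. No receptor separated these groups without overlap, which 0.964% of all genes did. The median log2FC was 0.25 in the members and 0.01 in all genes.

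Of the eplerenone-treated rats, replicates 1, 2, 4 and 5 lay above every cirrhosis rat for Rxra and replicates 1, 2 and 4 for Thrb, while replicate 3 had 14 and 13 FPM, within the cirrhosis range or below it. Leaving out 1 library gave log2FC of 1.40 to 2.02 for Rxra and of 0.69 to 1.10 for Thrb. The animal labels of the CCl4-treated rats start with 15 (cirrhosis replicates 1 to 3, cirrhosis & eplerenone replicates 1 and 2) or 20 (the others), a prefix whose meaning is not given. Within prefix 15 the mean log2 difference, eplerenone minus cirrhosis, was 2.75 for Rxra, 1.56 for Thrb and 0.84 for Nr1i2. Within prefix 20 it was 0.59, 0.13 and 0.27. Cirrhosis replicates 1 and 3, the libraries with the large span difference, both carry prefix 15, and Rxra and Thrb are in the longest quintile. The parts of prefix and span in these values were not tested. With the prefix as a term, the log2FC of Rxra was 1.70 and not called. The control prefixes, 13 and 16, do not occur in treated rats, so that a batch that follows them and the CCl4 treatment cannot be told apart.

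With the span difference as a term, the log2FC of Rxra went from 1.75 to 0.74, that of Thrb from 0.91 to 0.40 and that of Esr1 from 0.83 to -0.25, while Nr1i2 kept 0.52 and Nr1d1 had 2.03.

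Target genes and partners of the receptors, listed from general knowledge, were read in the same fit. Of 14 coregulators, Ep300, a histone acetyltransferase, fell most (log2FC -2.22, edgeR FDR 0.0414), with Ncor1 and Nrip1 also lower in cirrhosis (-0.64 and -0.87), none higher and a median log2FC of -0.56. Ncoa2 had the smallest p of them under eplerenone (log2FC 2.20 ± 0.69 against cirrhosis, edgeR FDR 0.312). Of 18 listed targets of CAR and PXR, 12 were in the count table, and all 12 were tested. CAR and PXR mRNA fell, while 3 of the 12 were called higher in cirrhosis, none was lower and the median log2FC was 0.38. Both CCl4 groups also drank phenobarbital, whose induction CAR mediates, and controls did not, so its part here cannot be told apart. Of all genes, 13.4% were called higher and 6.67% lower. By edgeR alone, 4 of the 12 were higher. The 3 called in both tools were the exporter Abcc3 (3.13, edgeR FDR 0.00763), Aldh1a1 (1.95) and Ephx1 (1.02). Abcc3 and Aldh1a1 were also higher in cirrhosis & eplerenone than in control (2.57 and 1.52). Cyp2b1, the classical phenobarbital-induced cytochrome, was at 1.40 to 5.07 FPM in control and at 14.4 to 1070 FPM in the CCl4-treated rats, with 2 rats far above the rest, cirrhosis replicate 4 (1070) and cirrhosis & eplerenone replicate 1 (737). DESeq2 gave no p for Cyp2b1, so it could not be called in both tools.

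Of 13 HNF4A targets, Otc of the urea cycle (log2FC -1.15, edgeR FDR 0.02), F9 (-1.09) and Serpinc1 (-0.68) fell in cirrhosis, none rose, and the median log2FC was -0.56. The 11 hepatocyte markers had a similar median of -0.52. For this list and the next 2, the shares of all genes called were 6.67% lower and 13.4% higher. Of 10 targets of FXR and SHP, the bile acid importer Slc10a1 (-1.27, edgeR FDR 0.0364) and the conjugating enzyme Baat (-1.03) fell, none rose and the median log2FC was -0.57. Cyp7a1, the rate-limiting enzyme of bile acid synthesis, was not called (0.49 ± 0.37, edgeR FDR 0.339). LXR targets went both ways although LXR mRNA was not called, with Abcg5 (-3.10), Abcg8 (-4.88, edgeR FDR 0.00461), Srebf1 (-0.89) and Lpcat3 (-0.82) lower and Lpl (3.21, edgeR FDR 0.00294) higher among 10, with a median of -0.57. Abcg8 had 3.66 to 20.7 FPM in control and 0 to 1.06 FPM in cirrhosis.

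Hr, a corepressor that thyroid hormone induces, was higher in cirrhosis (2.94, edgeR FDR 0.00368), the only call among 6 thyroid hormone targets, whose median was -0.53. Klf9, a thyroid hormone and glucocorticoid target, had 43.1, 47.5, 9.92, 19.4 and 9.18 FPM under eplerenone against 4.88 to 10.7 FPM in cirrhosis (log2FC 1.91 ± 0.44, edgeR FDR 0.312, DESeq2 FDR 0.0101). Replicates 1 and 2 were highest, as they were for Thrb, Rxra and Nr1d2. The same 2 rats had the high Dbp and low Arntl of their group, and both carry animal label prefix 15. The parts of Thrb, clock, prefix and span in the Klf9 values were not tested. Of 6 targets of PPARγ and PPARδ, Fabp4 (3.80, edgeR FDR 0.00627), Lpl and Cidea (1.03) rose and Plin2 (-1.41, edgeR FDR 0.0179) fell, with a median of 0.20. Among all genes, 13.4% were called higher in cirrhosis and 6.67% lower. No listed target or coregulator was called between cirrhosis & eplerenone and cirrhosis. In that comparison the smallest p of the other lists belonged to Por for CAR and PXR (log2FC 1.03 ± 0.45), Fgfr4 for FXR (0.44 ± 0.24), Abca1 for LXR (0.42 ± 0.15) and F7 for HNF4A (-0.30 ± 0.15). Among the other target lists it belonged to the retinol esterifying enzyme Lrat (1.62 ± 0.47), the clock output gene Hlf (1.24 ± 0.46), Cidec for the PPARs (0.38 ± 0.21) and the immediate early gene Fosb (1.92 ± 1.02), with edgeR FDR of 0.312 to 0.394.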

How the data were processed

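Poly(A) RNA of rat liver was read by the authors with 150 bp from both ends, mapped to rn6 with HISAT2 2.1.0 and counted per gene over exons with featureCounts 2.0.0, including multimapping reads. The deposited table holds raw counts of reads per gene, without normalization or filter. Genes with near copies can share reads.

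From these counts, filterByExpr (minimum count 10) kept 14417 genes. The 3 groups of the sample labels were fitted in 1 model with edgeR 4.0.16 (TMM, quasi-likelihood test) and in 1 with DESeq2 1.42.0 under R 4.3.3, with Benjamini-Hochberg adjustment over all genes tested. The SE is the log2FC divided by the root of F. Between 16157491 and 21574767 reads per library limit what low genes can show. Intervals are exact and cover counting error only. Steps were tested on simulated data.

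Values in every rat are given for members called in any comparison, for the 3 members with the smallest p between cirrhosis & eplerenone and cirrhosis, and, chosen after their values were seen, for Nr0b2, Nr1d1, Nr1d2, Ppard, Nr4a1, Esr1, Cyp26a1, Dbp and Klf9. Of each list the called genes with the largest change or else the smallest p are named, and other called genes were added. The members and lists were chosen with earlier results of these data known. Of the listed genes, 12 symbols were not matched and not analysed here. Alternatives changed the tool, scaling, filter, samples, block and covariates.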

Additional observations from a re-analysis of the deposited data

Results flagged for a closer look

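In 5 of 102 groups of 4 or 5 rats, each of a receptor in a treatment group, 1 rat lay far from the others by Dixon's criterion, which chance gives in about 1 of 20 groups. Nr1d2 was at 59.5 FPM in cirrhosis replicate 4 (others 16.9 to 28.0), the rat with 182 FPM of Dbp. Nr4a2 was at 3.50 FPM in control replicate 5 (others 2.17 to 2.20). Esr1 was at 19.9 FPM (others 0.755 to 4.45) and Esrrg at 14.3 FPM (others 2.54 to 4.57) in cirrhosis replicate 5, the rat whose hepatocyte and cholangiocyte marker reads lay nearest to control in its group. Nr6a1 was at 0.593 FPM in cirrhosis replicate 3 (others 0.238 to 0.277), a difference of a few reads.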

How the results depend on the processing

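In cirrhosis vs control, 5 members lower and 1 higher became 11 and 2 with DESeq2 alone, 1 and 3 with total counts, 12 and 2 with 4 rats per group, 3 and 1 with a replicate block, 1 and 0 without cirrhosis replicates 1 and 3, and 2 and 0 with the span difference as a term. With at least 10 counts in every sample none was higher, since Vdr was not tested. Leaving out 1 library gave 2 to 13 lower and 1 to 2 higher, with 13 without cirrhosis replicate 5, 8 without cirrhosis & eplerenone replicate 3, 3 without cirrhosis replicate 4, control replicate 3 or control replicate 4, and 2 without control replicate 5. In cirrhosis & eplerenone vs control, 0 and 0 became 2 lower and 1 higher with DESeq2 alone, 1 higher (Esrra) with total counts, 1 lower (Ppard) with only the 2 groups compared, 1 higher (Nr4a3) without cirrhosis replicates 1 and 3, and 0 to 1 in each direction without 1 library. Nr4a3 was not tested in the main fit. It passed the filter in the smaller set through rats where it was high, so this call is no support. They were cirrhosis replicate 4 (11 reads) and cirrhosis & eplerenone replicates 1 and 3 (14 and 18 reads). In cirrhosis & eplerenone vs cirrhosis, 4 members were called higher with 4 rats per group (Nr1h4, Rxra, Thrb and Esr1, among 628 genes higher and 664 lower) and 0 in every other setting, leave-one-out included. The rats left out there were picked with earlier results of these data known: cirrhosis replicate 5 was the highest of its group for these 4 receptors, and cirrhosis & eplerenone replicate 3 the lowest for Nr1h4, Rxra and Thrb, so the 4 calls are no support.

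Other settings (edgeR alone, size factors, no filter, protein coding genes) stayed within 1.5 times. The replicate block kept Nr1i2, Nr1i3 and Vdr and added Esr1. Deviations of same-numbered rats of different groups correlated between -0.333 and 0.187 over 13 pairs, with 3 above 0.1. Rats with different numbers were not compared in this way, so this check cannot decide whether the numbers pair the samples. Among the receptors called or with the smallest p under eplerenone, signs turned in cirrhosis & eplerenone vs control for Nr1i2 (total counts, 0.0025), Thrb (total counts 0.25, 10 counts in every sample 0.0148, 4 rats per group 0.20, leave-one-out -0.21 to 0.20) and Rxra (leave-one-out -0.12, without cirrhosis & eplerenone replicate 2, to 0.57). In cirrhosis vs control, leave-one-out values spanned 0 for Nr1d1 (-0.81 to 0.33) and Nr1d2 (-0.23 to 0.61), which were not called, and Esr1 turned from 0.83 to -0.25 in cirrhosis & eplerenone vs cirrhosis with the span difference as a term. Of 625 values of the 8 called or smallest-p receptors under an alternative, 569 kept direction and side of the threshold, 33 lost the call, 14 gained it and 9 turned sign. The causes were not tested.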
